A study of Homo sapiens with 6 samples.

Results

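The E2F and RB family genes E2F1 to E2F8, RB1 and RBL1 were examined in K562 cells depleted of PCBP1, an RNA-binding protein with an affinity for C-rich sequence that also serves as an iron chaperone. Members were taken as the genes to which GENCODE release 44 assigns these symbols, which gave 10 of the 62252 genes in the tables and 63 of 251612 matched transcripts. K562 is an erythroleukemia line. Cells of both groups were transduced overnight with lentivirus carrying a pLKO.1 hairpin, directed at luciferase in shCtrl and at PCBP1 in shPCBP1, with 8 µg/mL polybrene, and were kept in 3 µg/mL puromycin for 4 days. Poly-A RNA was sequenced from 3 libraries per group. The samples were populations of transduced and selected cells, and the labels do not say whether replicates were separate transductions, so the p-values measure the spread between these libraries.

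E2F proteins bind the promoters of genes needed for DNA replication and the cell cycle, most of them as pairs with a DP protein. E2F1, E2F2 and E2F3 are known as activators, which the retinoblastoma protein RB1 holds in check until cyclin-dependent kinases phosphorylate it. E2F4 and E2F5 act mainly as repressors together with RB1-related pocket proteins such as RBL1 (p107), E2F6 represses through Polycomb complexes without a pocket protein, and E2F7 and E2F8 are atypical repressors that bind DNA without a DP partner. Several E2F genes are themselves E2F targets, which sets up feedback within the family.

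All 10 family genes passed the gene test, 8 of them higher and 2 lower in shPCBP1. Of all genes with a mean of at least 1000 normalized counts, as the family genes had, 44.9% passed. The activators E2F2 (1.48-fold), E2F1 (1.37-fold) and E2F3 (1.23-fold) rose, as did the pocket protein genes RBL1 (1.27-fold) and RB1 (1.12-fold). The repressors were split, with E2F4, E2F6 and E2F8 between 1.13-fold and 1.17-fold higher while E2F7 (0.764-fold) and E2F5 (0.828-fold) fell. No family gene reached an absolute log2 fold change of 1. PCBP1 itself, which the hairpin targets, had between 37799 and 40566 normalized counts in shCtrl and between 6625 and 7277 in shPCBP1, which left 18.1% of its shCtrl level (log2 fold change -2.47, SE 0.0439).

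The promoters of 4 family genes hold a canonical E2F site and are shown here because that site is the sequence the family's own proteins bind. The RefSeq table of promoter windows on GRCh38.p14, each running from 250 bases before to 50 bases after a start site, had 9 windows for 8 of the 10 genes. The E2F site was searched on both strands in 4 forms of 8 bases. These were TTTCGCGC, TTTGGCGC, TTCCCGCC and TTGGCGCC, and no match of one overlapped a match of another in these windows. Stretches of 68 or 78 bases around the matches follow, on the strand of the gene, with the matches in capitals.
E2F2 (chr1:23531238-23531305, minus strand): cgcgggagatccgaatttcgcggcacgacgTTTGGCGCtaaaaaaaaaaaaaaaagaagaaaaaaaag
E2F1 (chr20:33686368-33686435, minus strand): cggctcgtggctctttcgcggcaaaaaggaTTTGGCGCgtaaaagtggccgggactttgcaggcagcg
RBL1 (chr20:37095976-37096053, minus strand): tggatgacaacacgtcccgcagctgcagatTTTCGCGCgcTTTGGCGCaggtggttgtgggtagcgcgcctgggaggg
E2F3 (chr6:20401795-20401862, plus strand): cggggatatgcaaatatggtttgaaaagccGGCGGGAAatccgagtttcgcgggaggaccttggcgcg

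TTTGGCGC began 42 bases before the start site in E2F2, 20 bases before it in E2F1 and 16 bases before it in RBL1, whose window also held TTTCGCGC beginning 26 bases before the start. E2F3 held TTCCCGCC on the opposite strand, read here as GGCGGGAA, in the window of its upstream start site. Among all 35116 windows in the table, 0.652% held TTTGGCGC, 0.515% TTTCGCGC, 3.16% TTCCCGCC and 1.02% TTGGCGCC, and 4.95% held any of the 4. The windows of E2F4, E2F6 and E2F7 and the second window of E2F3, for a start site 1735 bases downstream of the gene start, held no match. The RB1 window, which held no match either, belongs to a start site 172706 bases inside the gene. E2F5 and E2F8 had no entry. The 4 genes with a match are the 4 family genes with the largest rises, which is a description of 8 genes and was not tested. These 8 include RB1, whose promoter at the start of the gene was not searched. E2F5 and E2F8 were not searched at all.

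Total estimated counts ranged from 67066747 to 140522444. Replicates varied beyond sampling noise, and the first principal component placed the 3 shCtrl libraries on one side and the 3 shPCBP1 libraries on the other. The K562 label was checked on 8 erythroid genes, all of which were expressed. Their summed level was 28811 to 34620 TPM in shCtrl and 32977 to 34398 TPM in shPCBP1. Of the lymphoid, monocyte and epithelial markers reported here, CD3D, LYZ, EPCAM and KRT8 exceeded 1 TPM in the libraries of both groups. The markers CD3E, CD79A, MS4A1, CD14 and CSF1R stayed at or below 0.450 TPM in all 6. CD3D averaged 66.1 TPM in shCtrl and 54.9 TPM in shPCBP1, and its part in the results was not tested.

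Gene values below are estimated counts summed per gene and divided by DESeq2 size factors (normalized counts). Fold changes and adjusted p-values come from the two-sided DESeq2 Wald test with Benjamini-Hochberg adjustment, and a gene passed at an adjusted p under 0.05. By that rule 31.2% of the 17095 genes with an adjusted p passed, 17.7% higher and 13.5% lower. All family genes averaged over 1000 normalized counts, and among the 9369 genes at that level 44.9% passed and 56.1% had groups that did not overlap, against 10 and 9 of the 10 family genes. The study's own rule, which also asks for a log2 fold change beyond 1 in either direction and a count over 10, was met by 1.37% of genes and by 0 family genes. The median log2 fold change was 0.22 over the family, 0.04 over the 9369 genes and 0.0019 over all genes tested. In bulk RNA, a change in the share of cells that express a gene and a change in its RNA per cell cannot be told apart.

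E2F2, an activator with the lowest p-value of the family (chromosome 1, 23506438 to 23531233, minus strand), had 2678, 2839 and 2887 normalized counts in shCtrl and 4139.8, 4098 and 4184 in shPCBP1. The shPCBP1 libraries lay far above every shCtrl library and close to each other, with an SD of 43.0 counts (n = 3). The log2 fold change was 0.56 (SE 0.0566, DESeq2 adjusted p 2.42e-21), the largest absolute change of the family.

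E2F1, the founding member and best-known activator (chromosome 20, 33675477 to 33686385, minus strand), had 3248, 3198 and 3476 normalized counts in shCtrl against 4775, 4305 and 4485 in shPCBP1. Every shPCBP1 library was above every shCtrl library, and the log2 fold change was 0.45 (SE 0.0601, DESeq2 adjusted p 2.81e-12). E2F3 (chromosome 6, 20401879 to 20493714, plus strand) had 8588, 8184 and 8401 normalized counts in shCtrl and 10821, 10375 and 9815 in shPCBP1. Its groups did not overlap, and the log2 fold change was 0.30 (SE 0.0463, DESeq2 adjusted p 2.0e-09). The processed pseudogene E2F3P2, listed at 1.31 to 2.58 TPM, resembles E2F3, and the splitting of reads between such copies makes low values uncertain.

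E2F7, an atypical repressor of E2F targets (chromosome 12, 77021248 to 77065569, minus strand), moved the other way. It had 3512, 3358 and 3376 normalized counts in shCtrl and 2585, 2593 and 2650.3 in shPCBP1. The libraries of each group lay close together with a wide gap between the groups, and the gene fell by 0.39 on the log2 scale (SE 0.0579, DESeq2 adjusted p 5.29e-10). E2F8, the other atypical repressor (chromosome 11, 19224063 to 19241620, minus strand), had 2656, 2420.2 and 2473 normalized counts in shCtrl and 3153, 2931 and 2654 in shPCBP1. The lowest shPCBP1 library was just below the highest shCtrl library, making E2F8 the only family gene whose groups overlapped. Its log2 fold change was 0.21 (SE 0.0736, DESeq2 adjusted p 0.0163). E2F8 no longer passed with transcript length offsets (log2 fold change 0.12, DESeq2 adjusted p 0.412), nor without shCtrl replicate 2 (0.0850), shCtrl replicate 3 (0.0710), shPCBP1 replicate 1 (0.150) or shPCBP1 replicate 2 (0.0818).

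E2F4, the most abundant family member (chromosome 16, 67192155 to 67198918, plus strand), had 13012, 10884 and 12826 normalized counts in shCtrl and 14858, 14382 and 13770.4 in shPCBP1. The groups did not overlap, although shCtrl replicate 2 lay well below the other shCtrl libraries. The log2 fold change was 0.23 (SE 0.0580, DESeq2 adjusted p 0.000612), and without shCtrl replicate 2 it was 0.15 and still passed.

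E2F5 (chromosome 8, 85177154 to 85217158, plus strand), the partner of pocket proteins closest to E2F4, had 1578, 1520.4 and 1460.2 normalized counts in shCtrl and 1178, 1219 and 1383 in shPCBP1. All shPCBP1 libraries were lower than all shCtrl libraries, and the gene fell by 0.27 on the log2 scale (SE 0.0883, DESeq2 adjusted p 0.00938). With transcript length offsets the fall was 0.14 and did not pass (DESeq2 adjusted p 0.432), and it did not pass without shCtrl replicate 1 (0.0689), shPCBP1 replicate 1 (0.0685) or shPCBP1 replicate 2 (0.0624). E2F5 shares 997 of its 5999 annotated exon bases with RBIS on the opposite strand, which stood at 120.3 TPM in shCtrl and 115 TPM in shPCBP1. Whether the library kit kept strand is not given in the sources used here, so reads from the shared bases could belong to either gene.

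E2F6, the Polycomb-associated repressor (chromosome 2, 11444375 to 11466177, minus strand), had 4219, 3925 and 4295 normalized counts in shCtrl and 4745, 4633 and 4715 in shPCBP1. The groups did not overlap, and the log2 fold change was 0.18 (SE 0.0539, DESeq2 adjusted p 0.00459). It was 0.35 when protein-coding transcripts alone were summed and 0.13 with length offsets, where it did not pass (DESeq2 adjusted p 0.234). The protein-coding sum includes E2F6-201, estimated at 0 in 5 libraries and at 697 normalized counts in shPCBP1 replicate 3. The main protein-coding form, E2F6-202, had a log2 fold change of 0.18 (DESeq2 adjusted p 0.336). Its processed pseudogene E2F6P4 was listed at 3.24 to 5.26 TPM, so reads may be split between the copies.

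Both pocket protein genes rose. RBL1 (chromosome 20, 36996349 to 37095997, minus strand), which encodes p107, had 3311, 3629 and 3511 normalized counts in shCtrl and 4658, 4225 and 4413 in shPCBP1. The groups were well separated, and the log2 fold change was 0.35 (SE 0.0596, DESeq2 adjusted p 9.22e-08). RB1 (chromosome 13, 48303744 to 48599436, plus strand), the retinoblastoma tumor suppressor, had 4754, 4773 and 4662 normalized counts in shCtrl and 5128, 5583 and 5118 in shPCBP1. Its groups did not overlap but lay near each other, and the log2 fold change was 0.16 (SE 0.0524, DESeq2 adjusted p 0.0110). RB1 did not pass without shPCBP1 replicate 2, its highest library (DESeq2 adjusted p 0.106), or when protein-coding transcripts alone were summed (0.0516).

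**Figure D1:**
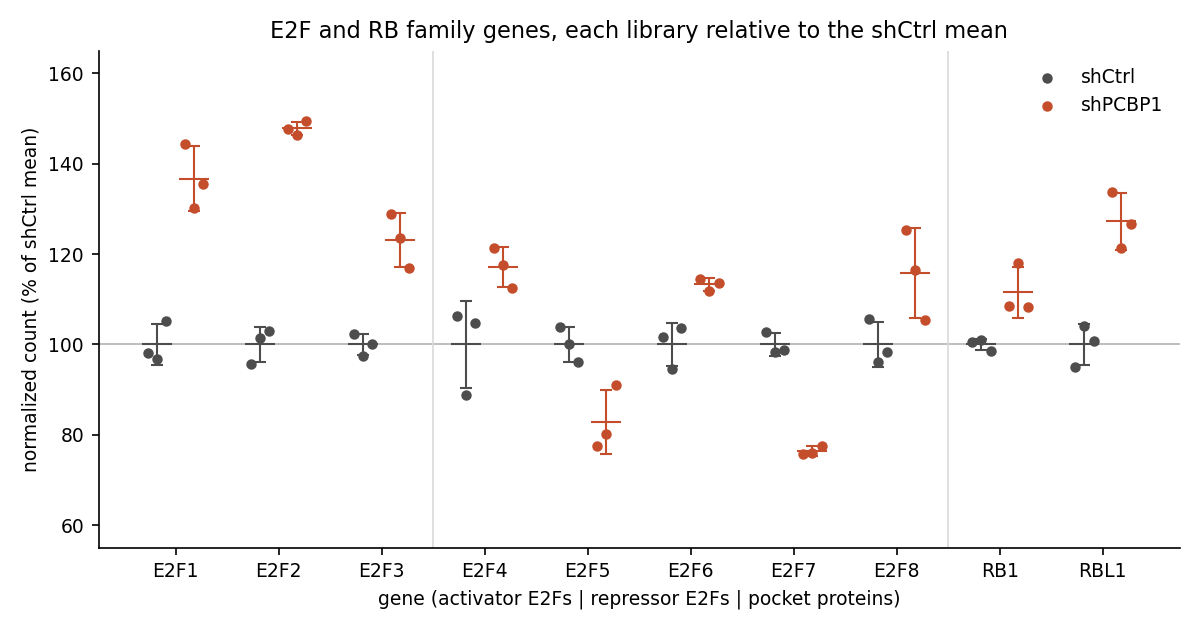
Normalized counts of the 10 family genes in each library (points), as a percentage of the shCtrl mean of the gene, with the mean (bar) and SD (whiskers, n = 3) of shCtrl and shPCBP1. Points of shPCBP1 lie above all shCtrl points for E2F1, E2F2, E2F3, E2F4, E2F6, RB1 and RBL1, below them for E2F5 and E2F7, and overlap them for E2F8.

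When tested against an absolute log2 fold change of 0.1 instead of 0, a DESeq2 Wald test called 5 family genes. These were E2F1, E2F2, E2F3 and RBL1, which rose, and E2F7, which fell. They also passed in each fit that left out a library and in every other alternative that used the threshold of 0.05 alone. So did E2F4, whereas E2F5, E2F6, E2F8 and RB1 each lost their call in at least 2 fits.

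Levels were compared between genes in TPM, the share of transcripts in a library after correction for transcript length. E2F4 was the most abundant at 90.9 ± 6.75 TPM in shCtrl and 103.8 ± 2.04 TPM in shPCBP1 (SD, n = 3). E2F6 at 24.6 ± 1.84 TPM and E2F3 at 23.0 ± 0.456 TPM followed in shCtrl with overlapping ranges, then E2F1 at 16.1 ± 0.558 TPM and RB1 at 14.1 ± 0.942 TPM. E2F5, E2F8, RBL1 and E2F7 came next, between 7.86 and 10.4 TPM on average, each with a range that overlapped that of its neighbor in the order. E2F2 was the lowest in shCtrl at 6.97 ± 0.413 TPM, below every E2F7 value.

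In shPCBP1, E2F7 was the lowest at 6.30 ± 0.910 TPM and E2F2 stood at 10.2 ± 0.392 TPM. E2F2, E2F5, E2F8 and RBL1 then ranged between 8.26 and 11.8 TPM, and neighbors among them overlapped. In normalized counts, 56.1% of all genes averaging at least 1000 had groups that did not overlap, and no such share is given for TPM. The groups did not overlap in TPM for E2F1, E2F2, E2F3, E2F4 and E2F7, and overlapped for the other 5 genes. E2F6, for example, had 26.7, 24.1 and 23.1 TPM in shCtrl and 24.7, 27.2 and 28.0 TPM in shPCBP1. RBL1 had 7.60, 11.0 and 8.37 TPM in shCtrl and 11.2, 10.5 and 11.1 TPM in shPCBP1. The high shCtrl value of RBL1, in replicate 2, had 18.1% of its TPM in RBL1-203, a transcript of 763 bases for which few reads make a high TPM.

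**Figure D2:**
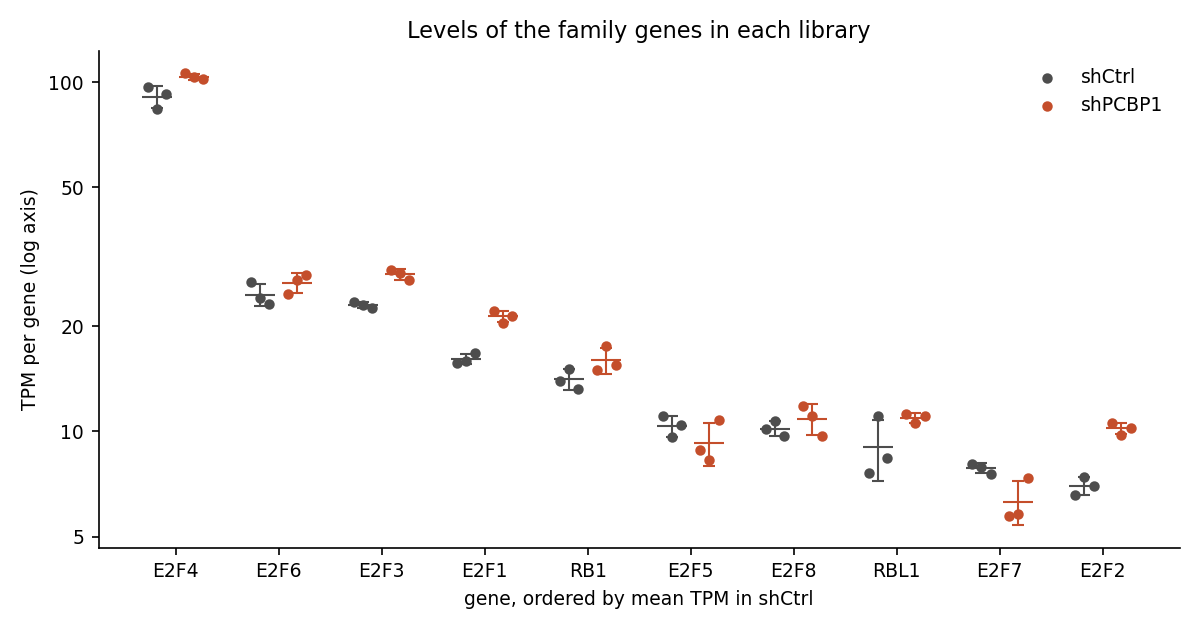
TPM per gene in each library (points, logarithmic axis) with the mean and SD (n = 3) of shCtrl and shPCBP1, ordered by the shCtrl mean. E2F4 stands apart at 83.6 to 106 TPM, and E2F2 lies below E2F7 in shCtrl and above it in shPCBP1.

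Activators were set against repressors by summing TPM within each class. E2F1, E2F2 and E2F3 together had 45.7, 46.3 and 46.3 TPM in shCtrl and 61.8, 58.7 and 58.7 TPM in shPCBP1, groups that lay far apart. E2F4 to E2F8 together had 152.8, 136 and 143.2 TPM in shCtrl and 157.1, 155.7 and 157.8 TPM in shPCBP1. Every shPCBP1 library was above every shCtrl library here too, by a smaller margin. The ratio of activator to repressor TPM was 0.299, 0.341 and 0.323 in shCtrl and 0.393, 0.377 and 0.372 in shPCBP1. The log2 ratio was higher in shPCBP1 by 0.25, and the pooled SD between libraries of the same group was 0.0732. E2F4 alone made up between 61.5% and 67.5% of the repressor sum, so the ratio mainly sets the activators against E2F4. With the mean of log2 TPM over genes, which weights each gene equally, the difference was 0.44.

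**Figure D3:**
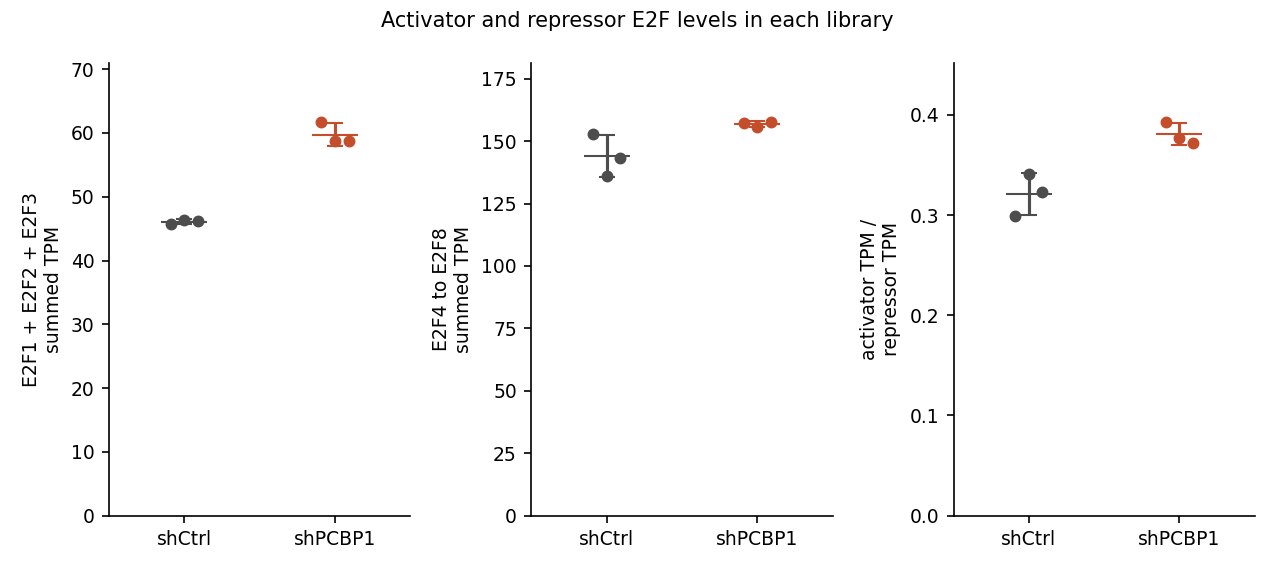
Summed TPM of E2F1, E2F2 and E2F3 (left), summed TPM of E2F4 to E2F8 (middle) and their ratio (right) in each library (points), with mean and SD (n = 3) and axes from 0. The ratio lies between 0.299 and 0.341 in shCtrl and between 0.372 and 0.393 in shPCBP1.

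Transcripts were then examined to see which annotated forms carried the changes. Of the 63 family transcripts, 55 had a summed count of at least 10 and 49 received an adjusted p in a DESeq2 fit of all transcripts. In this fit 9 passed, against 9.27% of the 105847 transcripts with an adjusted p. Of the 9, 8 were higher in shPCBP1 and E2F7-201 was lower. This test leaves out the uncertainty of splitting reads between transcripts and made more false calls on simulated data than its threshold allows. By the edgeR quasi-likelihood test E2F2-201 passed (adjusted p 0.0255) and the other 8 did not. Of 200 simulated 1.5-fold changes in transcripts, edgeR recovered 24 with 0 false calls, and DESeq2 recovered 147 with 767 false calls. A transcript that edgeR did not call may therefore still have changed.

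E2F2-201, the protein-coding transcript that held between 88.0% and 97.2% of E2F2 TPM, had 6.29, 6.86 and 6.74 TPM in shCtrl and 9.29, 9.50 and 9.73 TPM in shPCBP1. E2F1-201 is the only annotated transcript of E2F1, with 15.7, 15.9 and 16.7 TPM in shCtrl and 22.1, 20.5 and 21.4 TPM in shPCBP1. Its edgeR adjusted p was 0.0629. E2F7-201, the main protein-coding transcript of E2F7, had 6.87, 7.33 and 7.12 TPM in shCtrl and 5.67, 5.81 and 5.33 TPM in shPCBP1 (edgeR adjusted p 0.0863). In all 3 transcripts the groups did not overlap, which is likely for transcripts that passed. The share of all transcripts without overlap was not computed, here or for the transcripts below.

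The E2F3 locus is known to encode a longer and a shorter protein from separate promoters. E2F3-201, which starts at 20401879 on chromosome 6, had 8.84, 8.72 and 10.1 TPM in shCtrl and 11.2, 11.6 and 11.0 TPM in shPCBP1. E2F3-202, which starts 1800 bases downstream at 20403679, had 14.6, 14.3 and 12.5 TPM in shCtrl and 17.9, 16.8 and 16.1 TPM in shPCBP1. Both forms were higher in every shPCBP1 library, with log2 fold changes of 0.30 (SE 0.0873) and 0.29 (SE 0.0766) in the DESeq2 transcript fit. E2F3-202 made up 60.0% ± 3.94 of E2F3 TPM in shCtrl and 60.0% ± 1.40 in shPCBP1 (SD, n = 3), so the 2 forms kept the same average proportion.

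RBL1-202 had 7.35, 7.90 and 7.80 TPM in shCtrl and 10.0, 9.34 and 9.70 TPM in shPCBP1, and RB1-201 had 13.2, 13.5 and 13.0 TPM in shCtrl and 14.5, 15.9 and 14.5 TPM in shPCBP1. Neither overlapped between groups. E2F4-201, the main protein-coding form, had 73.1, 62.4 and 72.3 TPM in shCtrl and 81.8, 82.1 and 77.8 TPM in shPCBP1. The last of the 9 was E2F4-210, a short transcript annotated with a retained intron. It rose from 0.564, 0.912 and 0.804 TPM to 1.94, 1.39 and 1.73 TPM, but held under 2% of E2F4 TPM in every library and averaged 45.7 normalized counts.

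**Figure D4:**
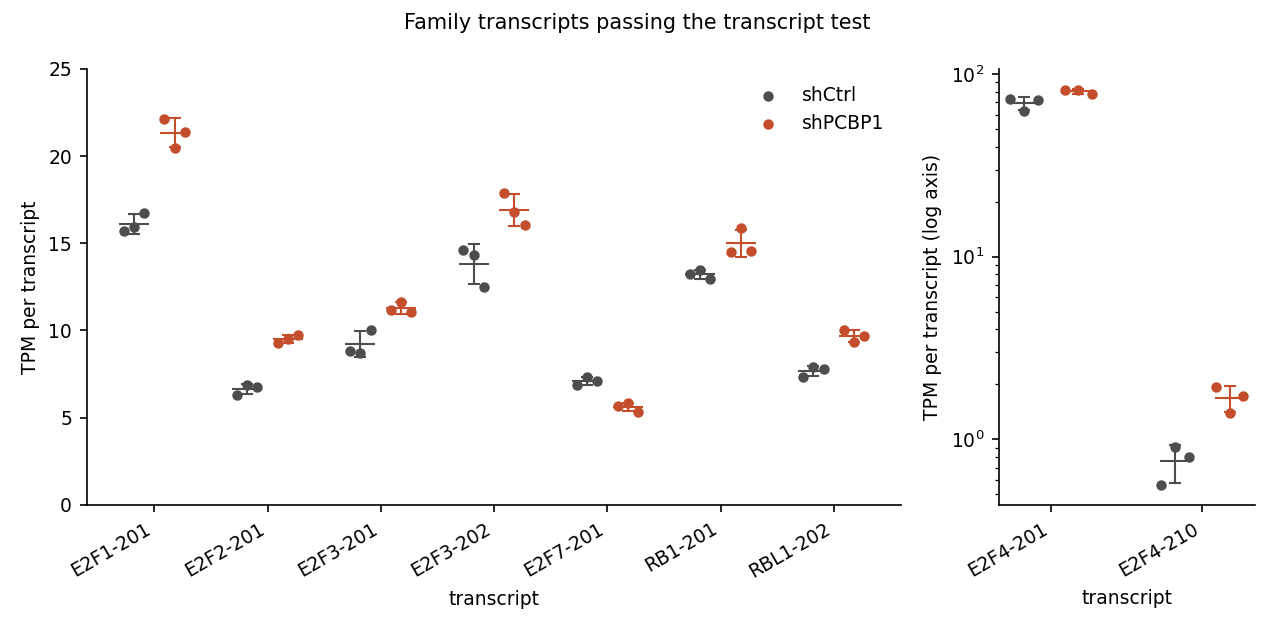
TPM of the 9 family transcripts with a DESeq2 adjusted p under 0.05 in each library (points), with mean and SD (n = 3) of shCtrl and shPCBP1. The left axis starts at 0, and the right axis is logarithmic for the abundant E2F4-201 and the rare E2F4-210. E2F7-201 is the only one of the 9 that is lower in shPCBP1.

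The proportions of transcripts within each gene were tested on log2 ratios of TPM with limma. Of 23 family transcripts with a share of at least 5%, 0 passed, against 0.706% of all 39521 transcripts tested. At an unadjusted p under 0.05 there was 1, E2F8-203, a short form without a defined coding sequence, at 12.1% ± 4.84 of E2F8 TPM in shCtrl and 5.29% ± 2.70 in shPCBP1 (SD, n = 3, limma adjusted p 0.361). The 2 most abundant E2F8 forms, the protein-coding E2F8-201 and E2F8-202, had edgeR adjusted p-values of 0.548 and 0.944. Small shifts in splicing could not be resolved, and larger ones could be missed. On simulated data the share test recovered 126 of 200 imposed 4-fold changes. Of the 63 transcripts, 28 were estimated at 0 in 1 to 5 libraries. E2F5-204, for example, was at 0 in shCtrl replicate 2 and shPCBP1 replicate 2 and between 1.60 and 3.40 TPM in the others.

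E2F5 TPM was spread over several forms. The protein-coding E2F5-202 had 5.01, 4.85 and 4.26 TPM in shCtrl and 3.24, 4.16 and 1.80 TPM in shPCBP1, groups that did not overlap, and its log2 fold change was -0.61 (SE 0.312, DESeq2 adjusted p 0.265). E2F5-203 and E2F5-201, the latter annotated as a target of nonsense-mediated decay and the form that reaches furthest downstream, overlapped between the groups.

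E2F6 stood out for the kind of transcript its reads were assigned to. Transcripts not annotated as protein-coding held 72.7% ± 4.94 of E2F6 TPM in shCtrl and 67.7% ± 5.46 in shPCBP1 (SD, n = 3), compared with 23.3% ± 2.01 and 21.7% ± 0.972 for E2F4 and no more than 12.9% on average in any other family gene. The most abundant, E2F6-207, is annotated as a target of nonsense-mediated decay and had 10.8, 10.5 and 10.2 TPM in shCtrl and 10.2, 10.7 and 11.6 TPM in shPCBP1. The groups overlapped (DESeq2 adjusted p 0.911). The main protein-coding form E2F6-202 had 5.88, 6.58 and 5.26 TPM in shCtrl and 6.08, 6.66 and 7.31 TPM in shPCBP1, also overlapping (DESeq2 adjusted p 0.336).

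Genes whose products work with the family were followed in 3 lists. Of 17 partners and cofactors, 9 rose, 0 fell and 8 did not pass by the DESeq2 test. Thus 52.9% passed, against 44.9% of all genes with over 1000 normalized counts. Unlike that background, the list also holds genes with lower means, down to 138 normalized counts, and none of these passed by this test. The median log2 fold change of the list was 0.14. The largest rise was in L3MBTL2, a reader protein of the Polycomb complex that E2F6 joins, with 4148, 3606 and 4278 normalized counts in shCtrl and 5655, 5449.8 and 5227 in shPCBP1 (log2 fold change 0.44, SE 0.0648, DESeq2 adjusted p 3.58e-10). MGA, the scaffold of the same complex, had 6414, 6117 and 6391 normalized counts in shCtrl and 8126, 7599.6 and 7516 in shPCBP1 (log2 fold change 0.30, SE 0.0479, DESeq2 adjusted p 1.41e-08). In both genes the groups were clearly separated. PCGF6, a Polycomb group gene of the same list, did not pass (log2 fold change 0.04, DESeq2 adjusted p 0.702). It was named after its values were seen. TFDP2, which encodes a DP partner of the E2Fs, had 10529.5 to 11472 normalized counts in shCtrl and 13639 to 14481 in shPCBP1 (log2 fold change 0.34, DESeq2 adjusted p 1.10e-12). Its rise was absent once transcript length was taken into account, with 77.8 ± 6.67 TPM in shCtrl and 74.3 ± 2.40 TPM in shPCBP1 (SD, n = 3), and with length offsets it had a log2 fold change of -0.05 (DESeq2 adjusted p 0.703). With edgeR, 17 partners and cofactors gave 7 rises and 0 falls. By the DESeq2 test, 2 had an unadjusted p under 0.05 in the downward direction, LIN37 (adjusted p 0.0685) and EAPP (adjusted p 0.0518), both named after their values were seen. A DESeq2 fit of protein-coding genes only called 11 of the list, 9 higher and these 2 lower.

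The next list held 21 genes, made up of cyclins, cyclin-dependent kinases, their inhibitors and the further regulators CDC25A, SKP2 and CKS1B. Of the 21, 19 could be tested, of which 7 rose, 2 fell and 10 did not pass by the DESeq2 test. The share that passed was 47.4%, near the 44.9% of all genes with over 1000 normalized counts, and the median log2 fold change was 0.08. The list also holds CDKN2D, which averaged 619 normalized counts, under that level, and did not pass. CDKN1A, which encodes the kinase inhibitor p21, had 2874, 2905 and 3070.1 normalized counts in shCtrl and 4947, 4837 and 5219 in shPCBP1. Its log2 fold change was 0.76 (SE 0.0564, DESeq2 adjusted p 8.05e-39), a larger rise than that of any family gene. CDKN2C, the inhibitor p18 of the cyclin D kinases, had between 4393 and 4484 normalized counts in shCtrl and between 5306 and 5844 in shPCBP1 (log2 fold change 0.34, DESeq2 adjusted p 1.49e-09). CDKN1C, the inhibitor p57, had 1556, 1689.9 and 1356 normalized counts in shCtrl and 1122, 1103 and 1211 in shPCBP1 and fell by 0.42 on the log2 scale (SE 0.0971, DESeq2 adjusted p 0.000128). The inhibitors therefore did not share a direction. CDKN2A and CDKN2B, which encode further inhibitors upstream of RB1, had 1 and 0 estimated counts over all 6 libraries and were not tested.

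CCNE2, cyclin E2, a partner of the S-phase kinase CDK2 and itself an E2F target, had 1350.4, 959.6 and 1338 normalized counts in shCtrl and 1727, 1623 and 1469.8 in shPCBP1 (log2 fold change 0.40, SE 0.117, DESeq2 adjusted p 0.00339). Without shCtrl replicate 2, its lowest library, the log2 fold change was 0.26, and without shPCBP1 replicate 1 CCNE2 did not pass (DESeq2 adjusted p 0.0541). CDK1, the mitotic kinase, had 27782 to 28092 normalized counts in shCtrl and 25681 to 26276 in shPCBP1, and fell by 0.10 (SE 0.0313, DESeq2 adjusted p 0.00432). With length offsets CDK1 fell by 0.03 and did not pass (DESeq2 adjusted p 0.705).

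Of 30 classic E2F target genes, 21 rose, 1 fell and 8 did not pass by the DESeq2 test. The share that passed was 73.3% and the median log2 fold change 0.21, next to 44.9% and 0.04 for all genes with over 1000 normalized counts. This list was drawn up knowing that E2F targets had been reported as a group for these samples, so it is not independent evidence of a direction. DNMT1, the maintenance DNA methyltransferase, had 32308, 31919 and 32139 normalized counts in shCtrl and 42553, 40448 and 40532 in shPCBP1 (log2 fold change 0.36, SE 0.0331, DESeq2 adjusted p 4.68e-25). MCM5, a subunit of the replicative helicase, had 16306, 15778 and 17859.8 normalized counts in shCtrl and 21799, 20655 and 19695 in shPCBP1 (log2 fold change 0.32, SE 0.0497, DESeq2 adjusted p 5.57e-09). Both were higher in every shPCBP1 library. The gene that fell was BUB1, a spindle checkpoint kinase, with 16766 to 17000 normalized counts in shCtrl and 15407 to 15919.7 in shPCBP1 (log2 fold change -0.11, SE 0.0348, DESeq2 adjusted p 0.00571). With length offsets BUB1 fell by 0.07 and did not pass (DESeq2 adjusted p 0.341).

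**Figure D5:**
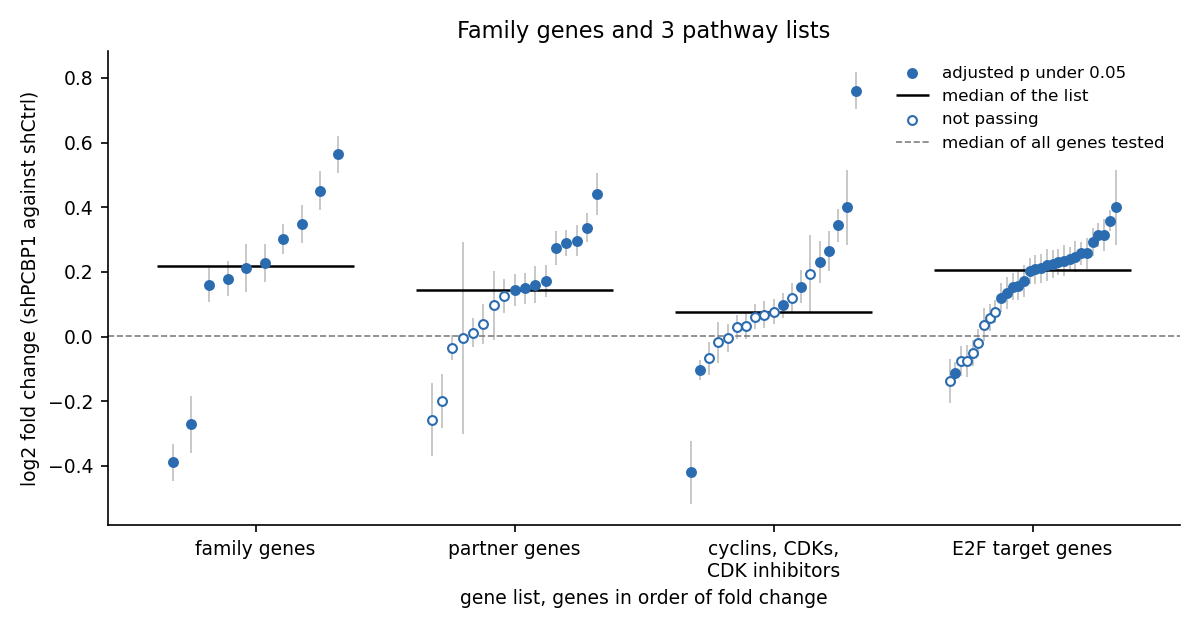
Log2 fold change (points) with its SE (whiskers) from the DESeq2 gene fit for the 10 family genes and the tested genes of 3 lists, in order within each list. Filled points passed at an adjusted p under 0.05, solid lines are list medians (0.22, 0.14, 0.08 and 0.21) and the dashed line is the median of all genes tested.

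The protein-coding genes whose log2 normalized counts followed those of E2F2 most closely over the 6 libraries, among 11614 compared, were DCBLD2 (Pearson r 0.999), WIZ (0.998) and BTBD10 (0.997). With 2 groups and 6 libraries many genes follow the same step, and 666 of them had an r over 0.95.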

How the data were processed

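The labels gave the groups and replicate numbers. The authors quantified transcripts with Salmon 1.10.2, which gave the deposited estimated counts (not normalized), the deposited TPM and effective lengths. The annotation behind their index is not given in the sources used here, and 251612 of 252045 transcripts matched GENCODE release 44 on GRCh38 (hg38). The remainder held up to 0.147% of counts and was left out. Estimated counts were summed per gene, rounded, and tested with the DESeq2 Wald test, the tool and test named by the study, in version 1.42.0. A summed count of at least 10 and group as the only term were settings chosen here. Fold changes are unshrunken, and missing adjusted p-values were kept missing. Transcripts were tested alike, and transcript shares with limma 3.58.1 after adding 0.1 TPM, in genes of at least 1 TPM. Alternatives used edgeR 4.0.16 (R 4.3.3). Fits were tested on simulated data.

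The members, lists and naming rule were chosen with earlier results of these data known. Named were all members, PCBP1, from each list up to 3 rises and 3 falls that passed without group overlap, transcripts with a share of at least 10% or a call, and the 3 genes most like the member of lowest p with a mean of at least 100 counts. The background at 1000 counts was chosen after seeing the data. One gene of the marker lists is not reported here.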

Additional observations from a re-analysis of the deposited data

How the results depend on the processing

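The count of family genes that passed stayed at 10 with edgeR, TMM factors, other count filters, protein-coding genes only and the replicate block, and was 9 with protein-coding transcripts only and 7 with transcript length offsets. It was 5 with 0.1 on the log2 scale as the null value and 0 under the study's threshold of 1, and ranged from 7 to 10 when each library was left out. With that null value the partner, cyclin and target lists gave 5, 3 and 11 calls. Replicate numbers did not pair the libraries, since deviations of same-numbered libraries correlated at 0.0130, 0.00453 and -0.0285. The replicate block gave 8 calls among the partners, 8 among the cyclins, 21 among the targets and 8 among the family transcripts. With edgeR, which recovered 24 of 200 simulated 1.5-fold transcript changes, 1 family transcript passed instead of 9. Leaving out a library from the DESeq2 fit gave 6 to 10. Family transcript shares gave 0 calls in every alternative. The activator to repressor difference was 0.44 with the mean of log2 TPM and 0.20 to 0.29 with a library left out. Signs turned for TFDP2 with length offsets (-0.047) and, with a library left out, for E2F5-203 (-0.50 to 2.2e-05), E2F6-207 (-0.0070 to 0.064) and E2F8-202 (-1.17 to 0.11), none of which were called transcripts. Of 160 refits of single family genes, 0 changed sign and 17 lost the call. The cause was not tested. Of the 63 family transcripts, 28 were estimated at 0 in 1 to 5 libraries, whose relation to depth was not tested.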

Other observations

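E2F7 fell while E2F1 rose. E2F8, the other atypical repressor, did not fall (log2 fold change 0.21), and a link between these changes was not tested. The log2 ratio of E2F1 to E2F7 TPM was 0.96, 1.01 and 1.14 in shCtrl and 1.95, 1.82 and 1.54 in shPCBP1. These groups could not overlap, since every shPCBP1 library had more E2F1 TPM and less E2F7 TPM than every shCtrl library. This pair was chosen after the values were seen, and the ratio was not tested.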
